A study of Macaca mulatta with 6 samples.

Results

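The kallikreins are a family of secreted serine proteases, and 10 of their genes were taken up here by symbol: KLK1, KLK4, KLK5, KLK6, KLK7, KLK8, KLK10, KLK11, KLK12 and KLK13. Of these 10, 9 had a row among the 28536 genes of the deposited count table, and KLK13 was not analysed here. After a filter on low counts 5 of the 9 (KLK4, KLK7, KLK8, KLK10 and KLK11) were among the 18676 genes tested. KLK4 was selected on its measured counts, which are lower after treatment in these same libraries, so its values are given as a description with no test. The others were taken as members of the family.

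RNA was sequenced from rhesus monkey trachea in 2 groups of 3 libraries, within a study of how lubricated and traditional catheters irritate the airway during intubation. The control group is labelled with normal saline. The other group is labelled with an Oxy@Lipo/Gel-coated lubricant in a model of intubation under general anaesthesia, and is called treated below. Age and sex are not in the labels, and neither is whether controls were intubated. The tissue entry reads lubricated catheter while the RNA extraction protocol mentions cell lines. Nothing in the labels ties a library to its own animal, so the p-values reflect only how far these libraries differ from each other, which may be technical.

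Tissue kallikreins are made as inactive precursors and are activated outside the cell by other proteases, including other kallikreins. Most cut proteins after arginine or lysine as trypsin does, while KLK7 cuts as chymotrypsin does. In skin and other stratified epithelia KLK5, KLK7 and KLK14 break the junction proteins that hold surface cells together, under the control of inhibitors such as LEKTI, the product of SPINK5. KLK1 releases kinin peptides from kininogen, and kinins act on the bradykinin receptors of vessels, sensory nerves and airway muscle. KLK4 is best known from prostate and from developing enamel, where it clears matrix proteins.

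Library totals ran from 17097177 to 23405294 counts, and 3 counts in a library corresponded to 0.128 to 0.175 CPM (counts relative to library size, without TMM scaling; all other CPM values are TMM-scaled). Airway markers were present in every library: the multiciliated list summed to 888 to 5047 CPM in controls and 2140 to 4781 CPM in Oxy@Lipo/Gel libraries, and the basal cell list to 2115 to 11680 and 1601 to 3685 CPM. By mean CPM the leading markers of the lists were KRT19 (epithelium), KRT15 (basal), SCGB3A1 (secretory), LYZ (serous gland), CAPS (multiciliated), MYH11 (smooth muscle), TNNT3 (skeletal muscle), ACAN (cartilage), TG (thyroid), FABP4 (fat) and CSF3R (neutrophils). Some libraries stood apart in their cell markers. Control replicate 2 had the highest basal sum (11680 CPM) and the lowest multiciliated sum (888 CPM). Its secretory sum was the lowest, at 2575 CPM against 10462 to 40938 CPM in the others. Adipocyte markers summed to 296 CPM in control replicate 3 and 323 CPM in Oxy@Lipo/Gel replicate 2, against 27.3 to 68.0 CPM elsewhere. Control replicate 3 held thyroid transcripts, with a thyroid sum of 5629 CPM against 11.0 to 24.0 CPM in the other libraries. Smooth muscle markers summed to 14038 and 19048 CPM in Oxy@Lipo/Gel replicates 2 and 3 and to 843 to 2481 CPM in the other 4 libraries. Serous gland markers summed to 543 to 1447 CPM in controls and 9147 to 30377 CPM in Oxy@Lipo/Gel libraries.

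In the RefSeq table of assembly T2T-MMU8v2.0 the tissue kallikrein genes form a single run on chromosome 19, between ACP4 and CTU1. Their order is KLK1, KLK15, KLK3, KLK4, KLK5, KLK6, KLK7, KLK8, KLK9, KLK10, KLK11, KLK12, KLK13 and KLK14, with a protein-coding gene that has only a LOC identifier between KLK3 and KLK4. This is not the build of the deposited files, so no coordinates are given. Of the 14 genes 13 had a row in the count table.

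Per kilobase of gene length, KLK11 and KLK10 were the highest members. In controls KLK11 stood at 21.7 ± 11.2 FPKM (mean ± SD, n = 3) and KLK10 at 17.7 ± 11.3 FPKM. Their spreads overlapped, but KLK11 was higher than KLK10 within every control library (KLK10 over KLK11 0.720 to 0.900). KLK8 followed at 3.03 ± 1.01 FPKM, then KLK7 at 1.21 ± 0.686 and KLK4 at 1.13 ± 0.783 FPKM, again within each other's spread. KLK6, KLK1, KLK12 and KLK5 lay between 0.0431 and 0.228 FPKM. In the Oxy@Lipo/Gel libraries KLK11 (13.1 ± 8.28 FPKM) and KLK10 (9.76 ± 5.15 FPKM) still led, KLK7 came next at 4.71 ± 3.05 FPKM, then KLK8 at 1.17 ± 0.678 FPKM, and KLK4 stood at 0.0211 ± 0.0140 FPKM. The gene length behind the FPKM of KLK4 was 6430 bases, against 1380 for KLK10 and 1385 for KLK11, so the place of KLK4 in this order depends on that gene model.

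**Figure D1:**
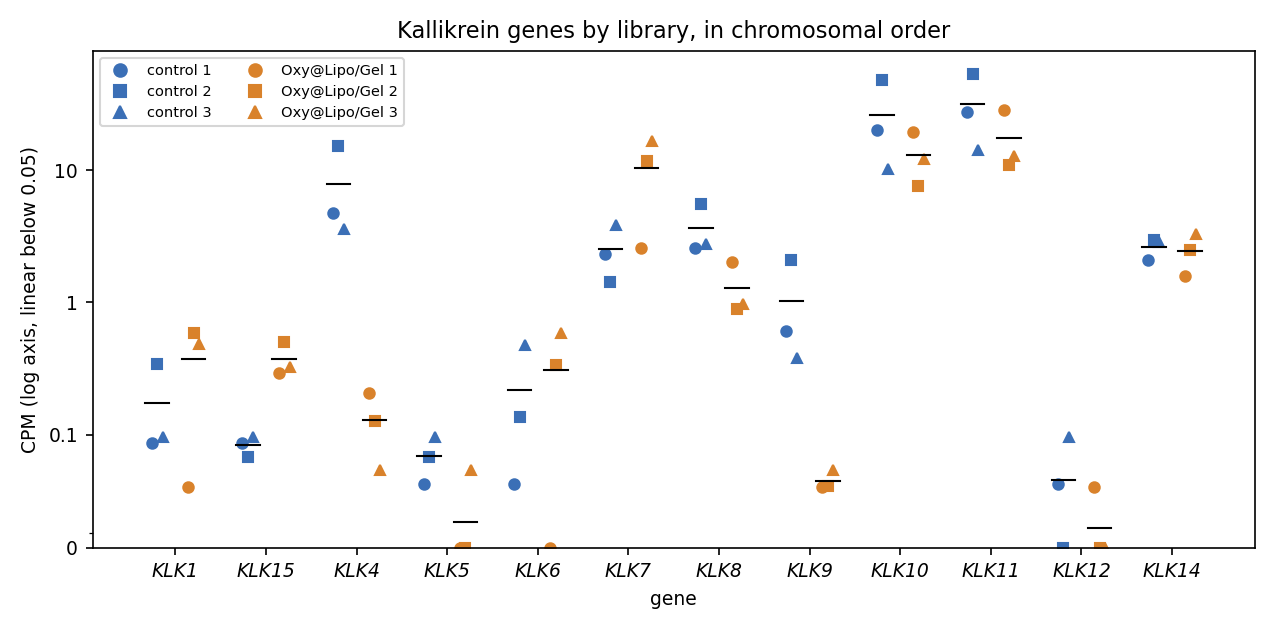
CPM of 12 kallikrein genes in each of the 6 libraries, on a log axis that is linear below 0.05, in their order along the chromosome. Points are libraries and black lines are group means. KLK4, KLK8 and KLK9 have every control library above every Oxy@Lipo/Gel library, as do 17.7% of all tested genes. KLK15 has the opposite, as do 12.2%. KLK10 and KLK11 follow each other from library to library.

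KLK4 was close to the detection limit in the Oxy@Lipo/Gel libraries and clearly counted in controls. It had 109, 223 and 75 counts in control replicates 1, 2 and 3, and 5, 3 and 1 counts in Oxy@Lipo/Gel replicates 1, 2 and 3. On the CPM scale these were 4.74, 15.1 and 3.57 in controls and 0.208, 0.126 and 0.0536 in the treated libraries. The groups lay far apart: the lowest control library held 75 counts and the highest treated one 5. Mean levels were 7.82 ± 6.37 and 0.129 ± 0.0770 CPM, 60.5-fold lower with Oxy@Lipo/Gel, and the ratio of summed counts was 50.2 (exact 95% interval 26.2 to 111, counting error only). The fitted log2 fold change was -5.80, and it ran from -6.16 to -4.91 when any 1 control library was left out. KLK4 was chosen for this fall and passed the count filter through the controls alone. These values describe the fall and are no support for it. Fewer cells that make KLK4 and less KLK4 RNA per cell cannot be told apart in bulk tissue.

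Other markers separated the same libraries. The sum of all 10 serous gland markers was at least 9147 CPM in every treated library and at most 1447 CPM in any control, and cartilage markers (7 of 7 with a row) summed to 11.8 to 71.8 CPM in controls and 204 to 631 CPM in treated libraries. Their part in the KLK4 difference was not tested.

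KLK9, a kallikrein of little known function that is not among the 10, showed the same pattern at lower counts. It had 14, 31 and 8 counts in the control replicates and 1 in each Oxy@Lipo/Gel replicate. All 3 controls were higher, and replicate 2 was again the highest. The ratio of summed counts, 53 against 3, was 19.6 (exact 95% interval 6.35 to 98.1, counting error only). The gene did not pass the count filter. It was named after its values were seen, so the adjusted p-values given here are not independent support for a fall. With no filter its edgeR adjusted p was 0.0678, and in DESeq2 it was 0.00376; over the 6 fits that held it the adjusted p ran from 0.00376 to 0.306. KLK4 and KLK9 are not neighbours, as KLK5, KLK6, KLK7 and KLK8 lie between them.

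KLK7, the chymotrypsin-like protease of epidermal shedding, was higher in some treated libraries. It measured 2.31, 1.43 and 3.85 CPM in the control replicates and 2.57, 11.7 and 16.6 CPM in Oxy@Lipo/Gel replicates 1, 2 and 3. Oxy@Lipo/Gel replicate 1 lay inside the control range, while replicates 2 and 3 were at least 3 times the highest control. The log2 fold change of 2.01 ± 0.71 (SE) did not pass (edgeR adjusted p = 0.165). DESeq2 gave an adjusted p of 0.0338, the lowest of 15 alternatives, which ran up to 0.430. The libraries with high KLK7 were also those with high smooth muscle markers (14038 and 19048 CPM against at most 2481 elsewhere, 6 of 6 markers with a row), and the part of this in KLK7 was not tested.

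KLK8, also called neuropsin, is a trypsin-like protease of brain and skin. Its levels were 2.57, 5.57 and 2.76 CPM in the control replicates and 2.03, 0.885 and 0.965 CPM in the Oxy@Lipo/Gel replicates. The groups did not overlap, but control replicate 1 and Oxy@Lipo/Gel replicate 1 were close. The log2 fold change was -1.47 ± 0.49 (SE; edgeR adjusted p = 0.152). KLK7 and KLK8 are adjacent genes, and the ratio of their FPKM was 0.138 to 0.751 in controls and 0.680 in Oxy@Lipo/Gel replicate 1, but 7.12 and 9.26 in replicates 2 and 3.

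KLK10 and its neighbour KLK11, which encodes a trypsin-like protease, varied together across libraries. KLK10 measured 20.0, 48.2 and 10.3 CPM in the control replicates and 19.4, 7.59 and 12.2 CPM in the Oxy@Lipo/Gel replicates. KLK11 measured 27.5, 53.8 and 14.3 CPM in controls and 28.5, 11.0 and 12.8 CPM in treated libraries. For both genes control replicate 2 was the highest library, Oxy@Lipo/Gel replicate 1 matched control replicate 1, and the groups overlapped. Their FPKM ratio stayed between 0.685 and 0.953 in all 6 libraries, and the correlation of their log2 CPM was 0.98 over these 6 libraries. Log2 fold changes of -0.997 ± 0.60 for KLK10 and -0.87 ± 0.56 for KLK11 (SE) did not pass (edgeR adjusted p = 0.363 and 0.393). They shrank to -0.22 and -0.27 without control replicate 2.

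Both genes followed the basal cell markers, of which 7 of 7 had a row. The mean log2 CPM of that list correlated with KLK10 at 0.97 and with KLK11 at 0.93 over the 6 libraries, given as a description. The basal marker sums were 6472, 11680 and 2115 CPM in the control replicates and 3685, 1601 and 2769 CPM in the treated ones. KLK4 correlated less with the basal list (0.64), and KLK7 ran against it (-0.71). KLK10 and KLK11 also ran against the secretory list (-0.89 and -0.86) and the adipocyte list (-0.87 and -0.83). Each point is a library with its own tissue make-up, and the part of any of these cells in the kallikrein levels was not tested.

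**Figure D2:**
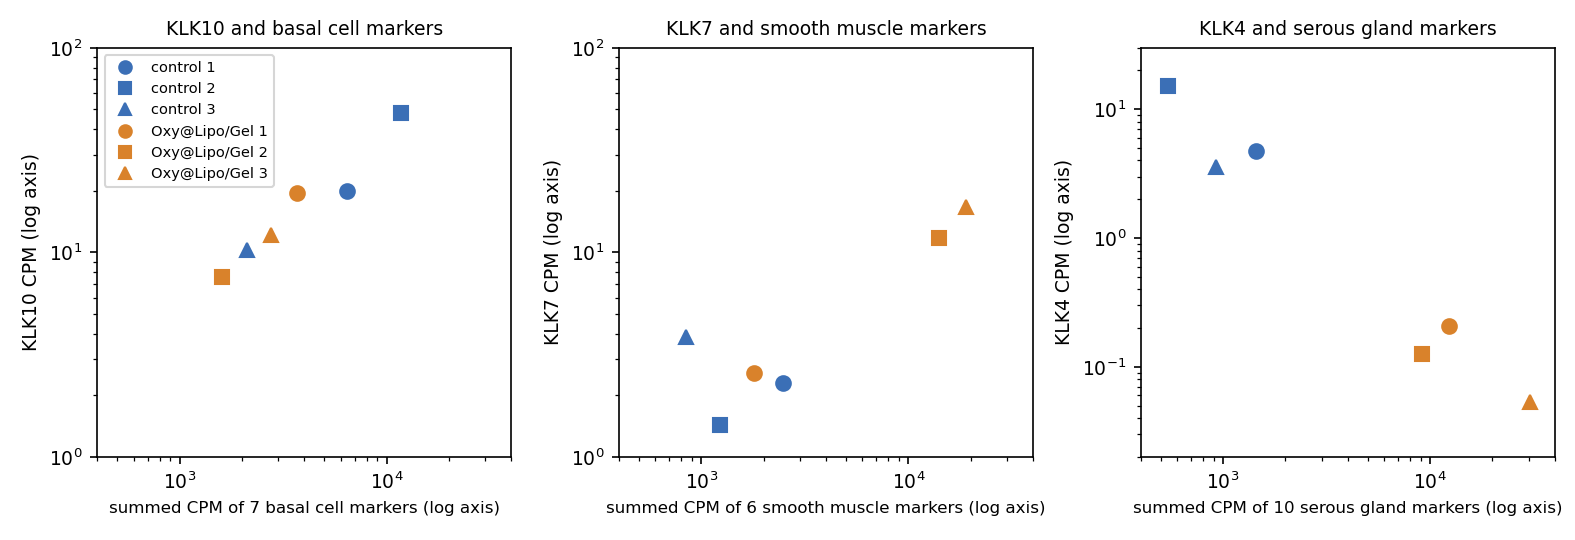
CPM of KLK10, KLK7 and KLK4 against the summed CPM of basal cell, smooth muscle and serous gland markers, each point a library and both axes logarithmic. KLK10 climbs with basal markers across both groups, KLK7 is high in the 2 treated libraries with high smooth muscle markers, and KLK4 splits by group as the gland markers do.

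The remaining members were near the detection limit and were not tested. KLK1, the kinin-releasing tissue kallikrein of glandular organs, had 2, 5 and 2 counts in controls and 1, 14 and 9 in treated libraries, and the groups overlapped. Its summed counts gave a ratio of 2.40 (treated over control, exact 95% interval 1.08 to 5.87, counting error only). KLK6, known from brain and from epithelial tumours, had 1, 2 and 10 counts against 0, 8 and 11, a ratio of 1.32 (0.617 to 2.90). KLK5, the trypsin-like activator of KLK7 in skin, had at most 2 counts in any library, as did KLK12. For KLK5, KLK6 and KLK12 a difference was not detectable at this depth. The KLK1 interval lies above 1, but it leaves out the spread between libraries, which overlapped.

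Other family genes varied less or were rare. KLK14, a protease of epidermal shedding at the far end of the run, measured 2.64 ± 0.485 CPM in controls and 2.45 ± 0.847 CPM in treated libraries (log2 fold change -0.11 ± 0.35 SE, edgeR adjusted p = 0.870). KLK15 had 2, 1 and 2 counts in controls and 7, 12 and 6 in treated libraries, all 3 higher, with a ratio of 4.51 (1.69 to 15.1, counting error only). Without a count filter its edgeR adjusted p was 0.142, and KLK15 too was named after its values were seen. KLK3 had at most 1 count in a library.

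The make-up of kallikrein transcripts differed between libraries. Summed over 13 genes, kallikrein FPKM was 47.1 ± 24.0 in controls and 30.6 ± 10.6 in treated libraries, with overlap between 26.5 and 42.4. KLK10 and KLK11 together made up 86.0%, 86.5% and 72.1% of that sum in control replicates 1, 2 and 3. They made up 90.0% in Oxy@Lipo/Gel replicate 1 but 61.5% and 61.9% in replicates 2 and 3, where KLK7 took 25.1% and 26.7%. The KLK4 share was 1.85% to 2.76% in controls and 0.0285% to 0.0899% in treated libraries, without overlap.

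**Figure D3:**
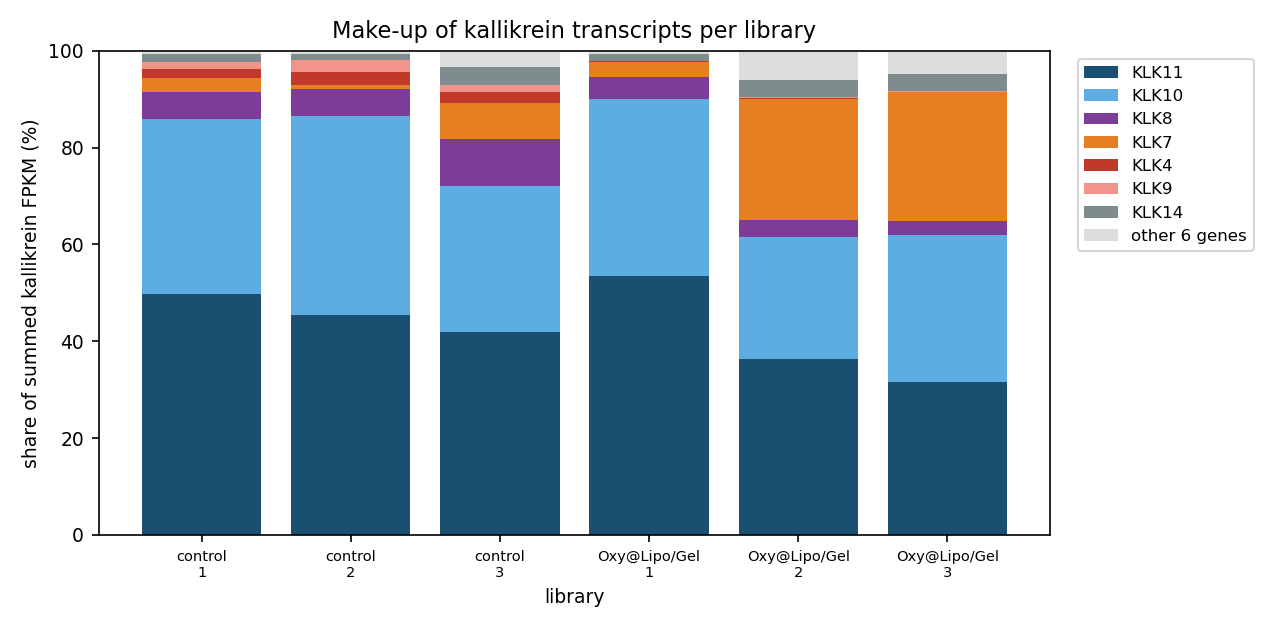
Share of summed kallikrein FPKM taken by each gene, in percent, stacked per library. KLK11 and KLK10 fill most of every bar, KLK7 reaches 25.1% and 26.7% in Oxy@Lipo/Gel replicates 2 and 3, and the KLK4 band, up to 2.76% in controls, is at most 0.0899% in the treated libraries.

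Of the 5 tested members, 1 passed an edgeR adjusted p of 0.05. This was KLK4, the gene chosen for its fall, so its pass is no support for that fall. The share that passed among all 18676 tested genes was 1.54%, made up of 0.851% with a rise and 0.685% with a fall after treatment. KLK4 and KLK8 had all controls above all treated libraries, as did 17.7% of tested genes, while 12.2% had the reverse and 29.9% either. KLK4 was chosen for this difference, which leaves KLK8 as 1 gene among the members, and nothing is read from it. The median log2 fold change of the 5 members, KLK4 included, was -0.997, beside -0.04 for all tested genes. Leaving out control replicate 2 gave a median of -0.24 and leaving out Oxy@Lipo/Gel replicate 2 one of -0.58, each over the 6 members that then passed the filter. Without control replicate 1 or 3, or without Oxy@Lipo/Gel replicate 2 or 3, 0 members passed. In these fits 1 to 4 members had an edgeR unadjusted p under 0.05, beside 2271 to 4858 of 18999 to 19307 tested genes.

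Genes most like KLK4 across the 6 libraries were ZNF225, POMT1, ITM2A, C6H5orf63 and RIPK1, with Pearson correlations of log2 CPM from 0.996 to 0.998. This likeness is common here, since 535 tested genes reached 0.95, and it reflects shape and not size: ITM2A measured 87.4 ± 15.6 and 40.9 ± 4.37 CPM, a 2.13-fold difference where KLK4 differed 60.5-fold. For KLK11, the most abundant member, the most alike were TRAF3IP2, MCTP2, PYCARD, ESRP2 and FOXN1 (0.990 to 0.994), and 161 genes reached 0.95. FOXN1, a transcription factor of thymic and skin epithelium, measured 1.74, 4.21 and 0.951 CPM in controls and 2.37, 0.759 and 0.912 CPM in treated libraries, the same order of libraries as KLK11.

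Serine protease inhibitors known to bind kallikreins were in part higher with Oxy@Lipo/Gel. Of 11 listed genes 6 were tested, 2 rose, 0 fell and 4 did not pass, with a median log2 fold change of 0.83. Among all tested genes 0.851% rose and 0.685% fell, with a median of -0.04. SERPINA5, the protein C inhibitor, which also inhibits several tissue kallikreins, rose from 4.00, 2.65 and 6.47 CPM to 55.0, 68.8 and 124 CPM. Every treated library was at least 8 times any control. The fitted log2 fold change was 4.23 ± 0.46 (SE), with an edgeR adjusted p of 0.0257. Its treated mean was 82.7 CPM but 4.70 FPKM, which implies a long gene model, and which reads that model gathers was not tested. SERPINA3, antichymotrypsin, rose from 145, 80.2 and 73.3 CPM to 772, 981 and 2082 CPM (log2 fold change 3.68 ± 0.52 SE, edgeR adjusted p = 0.0344). The gland markers separated the same libraries, and their part in both rises was not tested.

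Other inhibitors did not pass. SPINK5 measured 0.993 ± 0.383 CPM in controls and 0.704 ± 0.155 CPM in treated libraries (edgeR adjusted p = 0.501), and SLPI, the secretory leukocyte protease inhibitor, 312 ± 120 and 302 ± 111 CPM (edgeR adjusted p = 0.952). SERPINA1, antitrypsin, stood at 51.9 ± 27.4 CPM in controls and 83.3 ± 8.45 CPM after treatment (edgeR adjusted p = 0.384). The SERPINA5 call was lost without control replicate 1 or 3 or Oxy@Lipo/Gel replicate 2 or 3 (adjusted p from 0.0512 to 0.142), and the SERPINA3 call without any single library other than Oxy@Lipo/Gel replicate 1 (0.0637 to 0.151).

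Genes of the kinin system, downstream of KLK1, had fold changes in both directions. Of 10 listed genes 6 were tested, 1 rose, 0 fell and 5 did not pass, with a median of -0.47. The shares over all tested genes were 0.851% with a rise and 0.685% with a fall. MME, neprilysin, a membrane peptidase that degrades bradykinin, rose from 2.87, 2.65 and 3.76 CPM to 9.88, 8.05 and 12.8 CPM (log2 fold change 1.72 ± 0.28 SE, edgeR adjusted p = 0.0433). All treated libraries were at least 2 times any control, but the call was lost when any 1 library was left out (adjusted p from 0.0549 to 0.172), with scaling by library totals only (0.0588), in limma-voom (0.0577), and in limma on log2(FPKM + 1) (0.0513) and log2(FPKM + 0.1) (0.0532).

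Both bradykinin receptors lay just outside the threshold in the other direction. BDKRB1, the inducible B1 receptor, measured 5.61, 10.4 and 2.85 CPM in controls and 0.872, 0.674 and 0.858 CPM in treated libraries. Its log2 fold change was -2.96 ± 0.52 (SE; edgeR adjusted p = 0.0530, and 9.45e-06 to 0.269 over 15 alternatives). BDKRB2, the constitutive B2 receptor, measured 20.5, 13.2 and 20.1 CPM in controls and 7.51, 7.12 and 5.95 CPM in treated libraries, and its fitted log2 fold change was -1.39 ± 0.24 (SE, edgeR adjusted p = 0.0501, and 6.86e-05 to 0.273 over 15 alternatives). Neither receptor had overlapping groups, as was so for 29.9% of tested genes. DESeq2 called both, as it did 11.8% of the genes it tested. KLKB1, plasma kallikrein, a liver protease not related to the tissue kallikrein run, measured 1.33 ± 0.416 and 0.522 ± 0.167 CPM (edgeR adjusted p = 0.133), also without overlap. The kininogen gene KNG1 had at most 4 counts in a library.

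**Figure D4:**
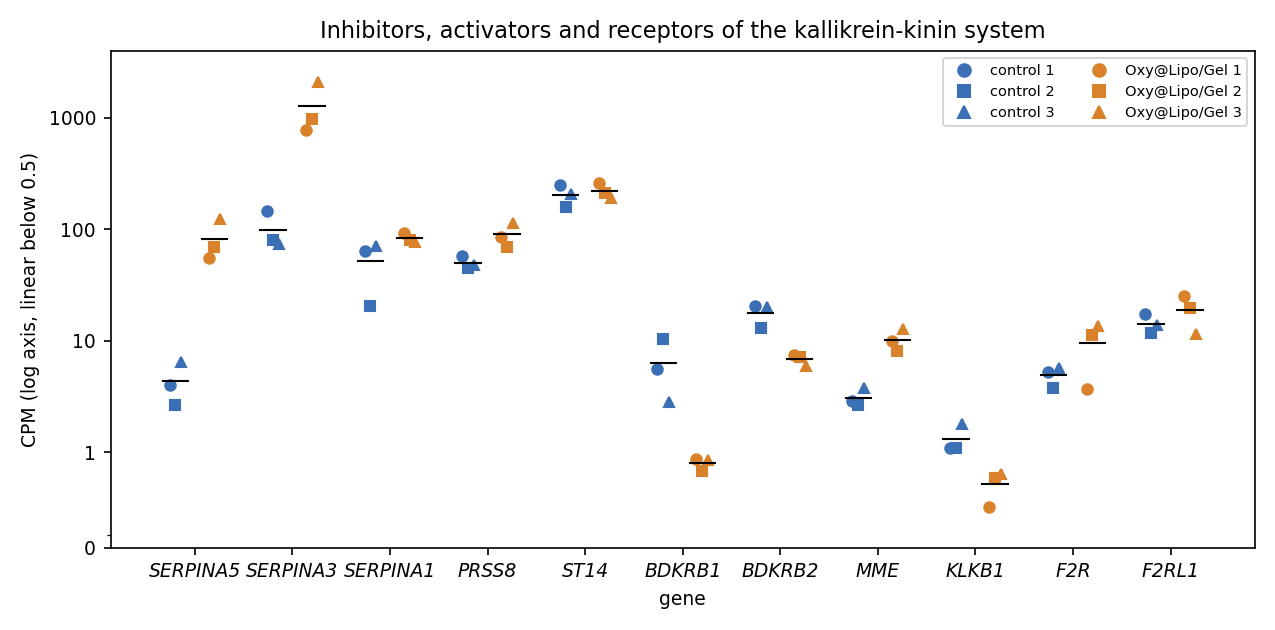
CPM per library of inhibitors (SERPINA5, SERPINA3, SERPINA1), activating proteases (PRSS8, ST14), kinin genes (BDKRB1, BDKRB2, MME, KLKB1) and protease-activated receptors (F2R, F2RL1), on a log axis that is linear below 0.5. Points are libraries and black lines group means. The treated libraries lie above all controls for SERPINA5, SERPINA3, SERPINA1, PRSS8 and MME and below them for BDKRB1, BDKRB2 and KLKB1. They lie above all controls for 12.2% of all tested genes and below them for 17.7%.

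Proteases that activate kallikreins gave 0 calls in edgeR among 5 tested of 9 listed genes, with a median of 0.11. At an edgeR unadjusted p under 0.05 there was 1, beside 4356 of all 18676 tested genes. DESeq2 called 1, beside 11.8% of the genes it tested, and limma-voom called 0. PRSS8, the membrane protease prostasin, measured 50.3 ± 6.95 and 90.3 ± 22.9 CPM without overlap (edgeR adjusted p = 0.108, and 0.0189 in DESeq2, the lowest of 15 alternatives, which ran to 0.260). ST14, matriptase, an activator of KLK5 and KLK7 precursors, measured 205 ± 45.5 and 221 ± 34.8 CPM (edgeR adjusted p = 0.805). PLAU, the urokinase gene, measured 8.34 ± 1.62 and 9.73 ± 3.88 CPM (edgeR adjusted p = 0.739).

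Among the protease-activated receptors, which some kallikreins cleave, 2 of 4 were tested and 0 passed in edgeR. At an edgeR unadjusted p under 0.05 there were 0, beside 4356 of all 18676 tested genes. DESeq2 called 1, beside 11.8% of the genes it tested, and limma-voom called 0. F2RL1, the receptor PAR2, measured 14.3 ± 2.82 and 18.9 ± 6.93 CPM (edgeR adjusted p = 0.474). F2R, the thrombin receptor PAR1, measured 5.22, 3.80 and 5.76 CPM in controls and 3.74, 11.3 and 13.7 CPM in treated libraries, high in the same treated replicates as KLK7 (edgeR adjusted p = 0.285). F2RL3, the receptor PAR4, did not pass the count filter, with 5, 3 and 21 counts in controls and 0, 1 and 0 in treated libraries, and was the gene DESeq2 called.

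Shedding and squamous genes, the setting in which KLK5 and KLK7 are best known, gave 0 calls in edgeR among 12 tested of 23 listed. Their median was -0.34. At an edgeR unadjusted p under 0.05 there were 3, SPRR1B among them, beside 4356 of all 18676 tested genes. DESeq2 called 1, beside 11.8% of the genes it tested, and limma-voom called 0. Limma on log2(FPKM + 1) and on log2(FPKM + 0.1) called 1 each, beside 209 and 281 of all 18676 genes. SPRR1B, a cornified envelope precursor, had 3, 3 and 2 counts against 16, 12 and 11. It passed the filter through the treated libraries alone, so no test of its own is given. Its place in the unadjusted count is no support for a rise. KRT10, a keratin of differentiated skin layers, measured 39.9 ± 4.41 and 30.4 ± 0.912 CPM (edgeR adjusted p = 0.163). DSG3, a desmosomal cadherin of basal layers, measured 18.9, 24.7 and 3.52 CPM in controls and 6.02, 2.23 and 5.42 CPM in treated libraries (edgeR adjusted p = 0.205). CDSN, the shedding substrate corneodesmosin, stood at 0.968 ± 0.103 and 0.858 ± 0.337 CPM, and DSG1 had 0 counts in all controls and 2, 6 and 1 in treated libraries.

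Enamel genes known as partners of KLK4 had few counts where they had a row, except ODAM in the treated libraries. Of 6 listed genes only ODAM passed the count filter, and it did so through the treated libraries where it is high, so its counts are given with no test. It had 0, 0 and 1 counts in controls and 57, 88 and 294 counts in treated libraries, without overlap. AMELX, amelogenin, had 2, 4 and 4 counts in controls and 0 in each treated library, and ENAM and MMP20 had at most 4.

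KLK4 is an androgen-responsive gene in prostate, and a list of steroid-response genes was followed for this reason. Of 13 listed genes 11 were tested, 0 rose, 2 fell and 9 did not pass, with a median of -0.03. The shares over all tested genes were 0.851% with a rise and 0.685% with a fall. FKBP5, a co-chaperone of steroid receptors, fell from 125, 170 and 144 CPM to 47.9, 47.6 and 38.7 CPM (edgeR adjusted p = 0.0257). ZBTB16, a zinc finger repressor, fell from 154, 316 and 191 CPM to 36.6, 46.5 and 55.4 CPM (edgeR adjusted p = 0.0347). Both genes are also known glucocorticoid targets. The calls were lost without control replicate 1 or 3 or Oxy@Lipo/Gel replicate 2 or 3 (adjusted p from 0.0683 to 0.191).

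The androgen targets TMPRSS2 (75.0 ± 5.88 and 90.8 ± 23.5 CPM) and SLC45A3 (27.7 ± 10.2 and 20.1 ± 4.70 CPM) did not pass (edgeR adjusted p = 0.478 and 0.404).

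**Figure D5:**
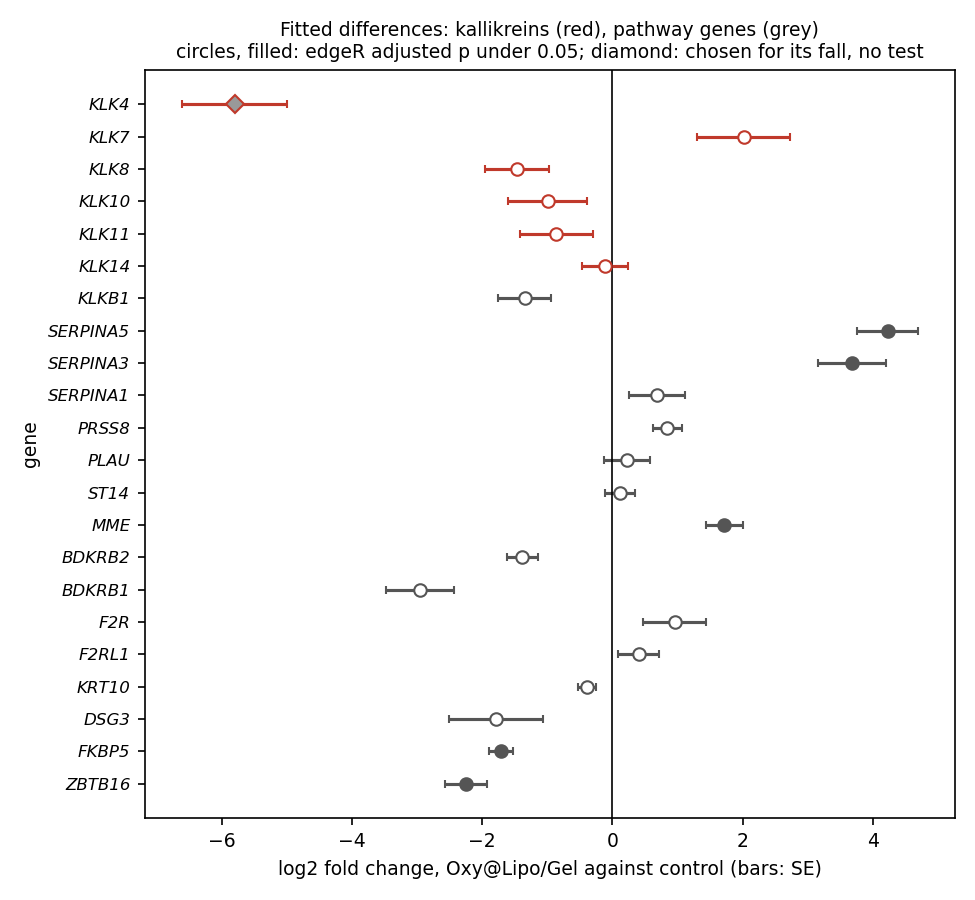
Log2 fold change of Oxy@Lipo/Gel against control with its SE for tested kallikreins (red) and pathway genes with 10 or more control counts (grey). This floor leaves out SPRR1B and ODAM, which were higher in treated libraries. Of the steroid-response list only genes that passed are drawn. Filled circles passed an edgeR adjusted p of 0.05, open circles did not, and the diamond marks KLK4, drawn without a test. KLK4 lies at -5.80, KLK7 at 2.01 and the other kallikreins between -1.47 and -0.11.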

How the data were processed

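Poly(A) RNA was made into dUTP strand-marked libraries and read from both ends, per the labels' protocols. Gene counts were used as the authors deposited them, unnormalised. FPKM, also deposited by the authors, is scaled to gene length and depth, and a single whole gene length (within 0.01 base) linked it to the counts for 17796 of 17796 genes checked. Not given in the sources used here: the aligner, the counter, its annotation and its use of strand, so antisense overlap is possible. The submitters' processing notes list GRCm38, rheMac8 and Mmul_8.0.1 with no stated use.

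Counts were tested with edgeR 4.0.16 (R 4.3.3; quasi-likelihood F test, TMM, group as the only term, filterByExpr with a count of 10 and a total of 15, Benjamini-Hochberg adjustment over all 18676 genes). SE is the fold change divided by the square root of F. Alternatives used limma 3.58.1 and DESeq2 1.42.0. The fit was tested on simulated data. Correlations use log2 CPM with a prior count of 2. The intervals and the floor hold for counting error alone. No replicate pair agreed within counting error (chi-square over its degrees of freedom was at least 46.2).

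The members and gene lists were chosen with earlier results of these data known. Named were all members, the called and the 3 lowest-p genes of each pathway list, the highest marker of each cell type, and the 5 genes most like KLK4 and KLK11. KLK9, KLK15, SPINK5, SLPI, CDSN, DSG1, AMELX, ENAM, MMP20, KNG1, F2RL3, TMPRSS2 and SLC45A3 were named after their values were seen. Sums of the epithelium, skeletal muscle and neutrophil markers are not printed. Of the steroid-response list 1 gene is not reported here. No sequences are shown.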

Additional observations from a re-analysis of the deposited data

How the results depend on the processing

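The count of kallikrein members called was 1 with median-of-ratios size factors, library totals, no count filter, a filter of 1 CPM in 3 libraries and log2(FPKM + 0.1). It was 2 in DESeq2 (KLK4 and KLK7) and 0 in limma-voom and on log2(FPKM + 1), and from 0 to 1 with a library left out. KLK4 was the member called in each count of 1. That gene was chosen for its fall, so these counts are no support for the fall. All genes called numbered 287, against 183 with library totals only and 2460 in DESeq2, and from 0 to 628 with a library left out. No gene passed, 0 in edgeR, when control replicate 1 was left out (3189 at an unadjusted p under 0.05), nor without Oxy@Lipo/Gel replicate 2 (2271) or control replicate 3 (4858). The cause was not tested. The samples share only a replicate number (same-number correlations of deviations 0.234, -0.350 and -0.162), and the replicate block gave 0 members and 0 genes (2866 at an unadjusted p under 0.05). The KLK4 fold change was negative under all 15 alternatives (-6.29 to -1.0, the smallest on log2(FPKM + 1), which compresses low values). KLK4 was chosen for its fall in these libraries, so this sign was fixed in advance and is no support for the fall. Signs changed for KLK14 (-0.38 to 0.12 with a library left out, positive without Oxy@Lipo/Gel replicate 1), PLAU (-0.066 to 0.50, negative without Oxy@Lipo/Gel replicate 3) and ST14 (-0.049 to 0.27, negative without control replicate 2 and, at -0.023, without Oxy@Lipo/Gel replicate 1). Of 120 list counts recomputed, 84 stayed within 1.5 times and 36 moved. A count of 0 in both fits was taken as unchanged. That held for most recounts of the other kallikrein, activator, receptor and squamous lists, so the 84 do not measure stability. Depth limits KLK1, KLK5, KLK6, KLK9, KLK12 and KLK15.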
